A study of Mus musculus with 6 samples.

Results

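The genes described here encode the integrins and the best known adhesion molecules of leukocyte traffic in the mouse. They are the rows of the deposited count table that name an integrin alpha or beta subunit, together with Icam1, Icam2, Icam4, Icam5, Vcam1, Madcam1, Sele, Selp and Cd44. The rule found 35 genes among the 24421 rows, namely 18 integrin alpha genes, 8 integrin beta genes and 9 other adhesion molecules. They were measured by RNA sequencing in 3D engineered muscle. Its cells are C2C12, a line of mouse myoblasts able to fuse into myotubes, held in a type I collagen gel fixed to titanium tendons. The tested constructs (n = 3) received TNF-alpha at 100 ng/mL for 72 h, and the control constructs (n = 3) received the vehicle, phosphate-buffered saline, over the same 72 h. All constructs come from this single cell line, and the labels name no endothelial or blood cells. The labels call the constructs biological replicates but do not state whether separate cultures were used, and p-values then cover only the variation among these 6 samples.

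Integrins are heterodimers of an alpha and a beta subunit that span the plasma membrane. They bind matrix proteins or counter-receptors outside the cell and, through talin and kindlin, the actin cytoskeleton inside it. In skeletal muscle the alpha 7 beta 1 dimer holds the fibre to laminin of the basement membrane. ICAM and VCAM proteins belong to the immunoglobulin superfamily and are bound by integrins of leukocytes, and in endothelium TNF-alpha is a classical inducer of Icam1, Vcam1 and the E-selectin gene Sele.

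The 6 libraries held 81713008 to 93533748 counts assigned to genes, and the first principal component held 83.0% of the variance. Levels are given below in CPM, counts scaled to the library total with TMM factors. Changes are log2 fold changes of TNF-alpha over vehicle with their standard error (SE) from edgeR's quasi-likelihood test. A gene rose or fell where the Benjamini-Hochberg adjusted p over all 15792 tested genes was under 0.05. By this rule 55.5% of all tested genes were called, 27.6% as risen and 27.9% as fallen, so a call alone does not set a gene apart.

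Of the 35 genes, 33 passed the filter on low counts, and of these 10 rose, 9 fell and 14 did not pass the test. The called share, 57.6%, lies near the 55.5% over all tested genes. Calls with at least a 2-fold change numbered 13 of the 33, beside 17.9% of all tested genes. Of these 13, 5 rose and 8 fell, where 8.47% of all tested genes rose and 9.46% fell by that much. Differences from the shares over all tested genes were not tested, and the genes were chosen with earlier results of these data known. The median log2 fold change was 0.08 over the 33 genes and 0.00 over all tested genes. The libraries of the groups did not overlap for 21 of the 33 genes, beside 64.5% of all tested genes. TNF-alpha libraries lay above in 10 of them and below in 11, beside 32.6% and 31.9% of all tested genes. Itga5, Itgav and Itgb3, subunits that bind fibronectin or the RGD motif, were among those that rose. Others that bind these ligands (Itga4, Itga8 and Itga9) fell, as did the alpha v partners Itgb5, Itgb6 and Itgb8. The muscle laminin receptor Itga7 and the collagen receptor Itga10 were also among those that fell.

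**Figure D1:**
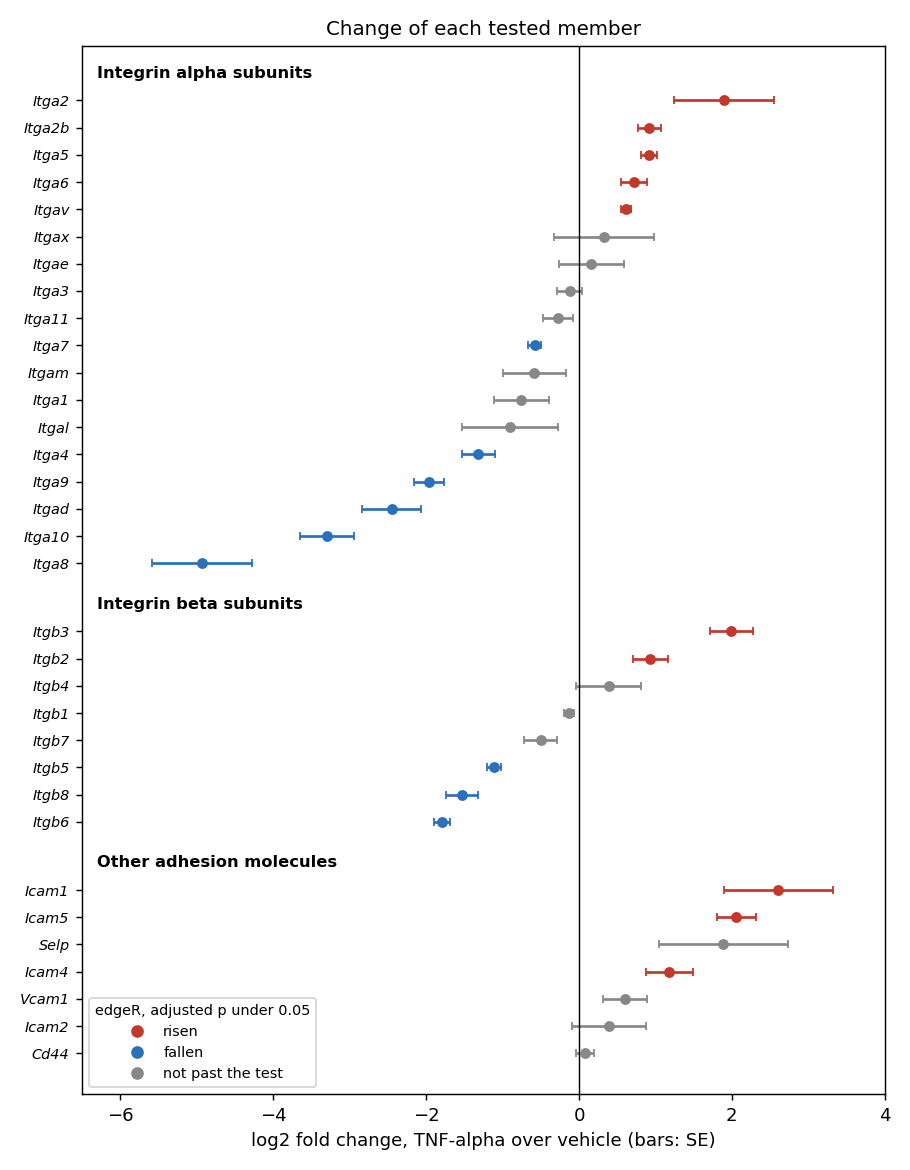
Log2 fold change of TNF-alpha over vehicle (x axis; bars, SE) for the 33 tested genes, in 3 classes and ordered by size; colours give the edgeR call. Changes run from -4.93 for Itga8 to 2.61 for Icam1, and Itgb1 and Cd44 lie close to 0.

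Among the subunits of laminin receptors, Itga7 and Itga6 moved in opposite directions. Itga7 (GRCm38 chromosome 10, 128933818 to 128958282, plus strand) encodes the alpha 7 chain, the main laminin-binding chain of differentiated muscle. Its level was 851, 941 and 956 CPM in the TNF-alpha libraries, against 1400, 1443 and 1259 CPM in the vehicle libraries. Every TNF-alpha library lay below every vehicle library. Itga7 fell by 0.58 ± 0.08 on the log2 scale (SE; adjusted p = 4.32e-04 by edgeR), with means of 916 ± 56.9 CPM in TNF-alpha libraries and 1367 ± 96.2 CPM in vehicle libraries (SD, n = 3 each). Markers of muscle cells moved with it: 7 of 8 listed markers fell, Myog rose, and their summed level was 4137 to 4488 CPM in TNF-alpha libraries and 7383 to 8512 CPM in vehicle libraries. In such bulk RNA, fewer cells of a type and less RNA per cell cannot be told apart, and the part of the muscle markers' change in that of Itga7 was not tested.

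Itga6 encodes the alpha 6 chain, a laminin receptor of many epithelial and progenitor cells. It had 108, 179 and 150.5 CPM in TNF-alpha libraries, against 92.7, 81.0 and 91.8 CPM in vehicle libraries. The groups did not overlap, although TNF-alpha replicate 1 lay close to the vehicle libraries. Itga6 rose by 0.72 ± 0.17 (adjusted p = 0.0109 by edgeR), between means of 146 ± 35.6 CPM in TNF-alpha libraries and 88.5 ± 6.51 CPM in vehicle libraries. Itga3, the alpha 3 chain that also binds laminins, had 41.5 to 67.5 CPM in TNF-alpha libraries and 55.0 to 61.0 CPM in vehicle libraries, and did not pass the test (-0.12 ± 0.17, adjusted p = 0.56). The spread came mostly from TNF-alpha replicate 2, the highest library. Without it the Itga3 change was -0.34 and passed (adjusted p = 0.0175, in a range of 0.0175 to 0.899 over the alternatives).

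The alpha chains that recognise the RGD motif of fibronectin and vitronectin rose, with the exception of Itga8. Itga5 (chromosome 15, 103344286 to 103366763, minus strand) encodes the alpha 5 chain, the fibronectin receptor when paired with beta 1. It had 384, 499.8 and 481.5 CPM in TNF-alpha libraries, against 229.5, 242.7 and 250.4 CPM in vehicle libraries. All TNF-alpha libraries were higher than all vehicle libraries. The rise was 0.92 ± 0.10 on the log2 scale (adjusted p = 9.57e-05 by edgeR), or 1.89-fold between means of 455 ± 62.3 CPM in TNF-alpha libraries and 241 ± 10.6 CPM in vehicle libraries (SD, n = 3 each).

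Itgav, the alpha v chain that pairs with several beta chains, had 184, 208 and 204 CPM in TNF-alpha libraries, against 133.2, 126 and 130 CPM in vehicle libraries. The groups were apart, and Itgav rose by 0.62 ± 0.07 (adjusted p = 7.87e-05 by edgeR), between means of 199 ± 12.9 CPM in TNF-alpha libraries and 129.7 ± 3.59 CPM in vehicle libraries. Itga2b, the alpha IIb chain known from platelets, had 8.51, 11.2 and 11.3 CPM in TNF-alpha libraries, against 4.83, 5.37 and 6.16 CPM in vehicle libraries. It rose by 0.92 ± 0.15 (adjusted p = 7.51e-04), between means of 10.3 ± 1.58 CPM in TNF-alpha libraries and 5.45 ± 0.671 CPM in vehicle libraries. Among 5 platelet and megakaryocyte markers, Pf4, Gp9 and Gp6 had at most 6 counts in a library. Ppbp and Gp1ba rose, and the summed level of the 5 genes was 3.84 to 5.36 CPM in TNF-alpha libraries and 1.51 to 1.73 CPM in vehicle libraries. The part of these markers' change in that of Itga2b was not tested.

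Itga8 (chromosome 2, 12106632 to 12301922, minus strand), whose product with beta 1 binds nephronectin, showed the largest fall of the 33 genes. It had 0, 10 and 14 counts in the TNF-alpha libraries, against 307.5, 259 and 196 counts in the vehicle libraries. In CPM this was 0, 0.117 and 0.167 in the TNF-alpha libraries, with a mean of 0.0946 ± 0.0857, against 3.69, 2.77 and 2.13 in the vehicle libraries, with a mean of 2.86 ± 0.786. The groups were far apart, and the log2 fold change was -4.93 ± 0.65 (adjusted p = 6.23e-04 by edgeR, in a range of -5.90 to -4.32 over the alternatives). Npnt, the gene of its ligand nephronectin, fell too, with a log2 fold change of -1.44 ± 0.10 (adjusted p = 7.69e-06), to 230 ± 19.9 CPM in TNF-alpha libraries, against 622 ± 69.5 CPM in vehicle libraries. The antisense gene E030013I19Rik shares exon bases with Itga8 and had 0 counts in the TNF-alpha libraries and at most 5.5 counts in a vehicle library.

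Of the collagen-binding chains, Itga10 changed most. Itga10 (chromosome 3, 96645584 to 96664519, plus strand) encodes the alpha 10 chain, best known from cartilage, where it binds collagen with beta 1. Its level was 3.39, 9.33 and 5.97 CPM in TNF-alpha libraries, against 62.4, 58.2 and 62.8 CPM in vehicle libraries. The TNF-alpha libraries differed among themselves and were all far below the vehicle libraries, a 9.81-fold difference of means. The log2 fold change was -3.30 ± 0.36 (adjusted p = 5.92e-04 by edgeR), between means of 6.23 ± 2.98 CPM in TNF-alpha libraries and 61.1 ± 2.56 CPM in vehicle libraries. Gm42957, annotated on the same strand and not a row of the table, shares 1739 exon bases with Itga10, so its reads could not be separated.

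The other collagen-binding chains were low. Itga11, a chain of fibroblasts, had 4.42 to 6.18 CPM in TNF-alpha libraries and 5.02 to 7.99 CPM in vehicle libraries and did not pass the test (adjusted p = 0.255). Itga1 had 13 to 27 counts per TNF-alpha library and 30 to 35 counts per vehicle library (-0.75 ± 0.36, adjusted p = 0.104). It passed only without TNF-alpha replicate 2 (-1.14, adjusted p = 0.0367, in a range of 0.0367 to 0.287). Itga2 had 8, 45 and 30 counts in TNF-alpha libraries, against 6, 11 and 6 counts in vehicle libraries. These counts overlap between the groups, although Itga2 rose by the test (1.89 ± 0.65, adjusted p = 0.0352). With limma-voom the adjusted p of Itga2 was 0.113. Dropping vehicle replicate 1, 2 or 3 gave 0.103, 0.0563 or 0.0957, and dropping TNF-alpha replicate 2 or 3 gave 0.139 or 0.0901. The alternatives spanned 0.00323 to 0.139.

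Itga4 and Itga9 form a small subfamily whose dimers bind VCAM-1, osteopontin and fibronectin. Itga4, the alpha 4 chain, is known from leukocytes and from myoblasts, where it binds VCAM-1. It had 3.19, 5.57 and 4.42 CPM in TNF-alpha libraries, against 13.3, 10.3 and 9.20 CPM in vehicle libraries. The log2 fold change of Itga4 was -1.32 ± 0.22 (adjusted p = 0.0013 by edgeR), between means of 4.39 ± 1.19 CPM in TNF-alpha libraries and 10.9 ± 2.13 CPM in vehicle libraries. Itga9, the alpha 9 chain, had 2.67, 2.31 and 2.44 CPM in TNF-alpha libraries, against 6.91, 11.3 and 10.6 CPM in vehicle libraries. It fell by 1.96 ± 0.19 (adjusted p = 5.05e-05), between means of 2.47 ± 0.18 CPM in TNF-alpha libraries and 9.62 ± 2.38 CPM in vehicle libraries. Neither gene's groups overlapped. Cerkl, transcribed from the opposite strand and sharing 1124 exon bases with Itga4, had 10.5 to 38.5 counts per TNF-alpha library and 42 to 69.5 counts per vehicle library, where Itga4 had 298.5 to 477.4 counts per TNF-alpha library and 846 to 1107.7 counts per vehicle library.

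Leukocyte alpha chains were close to the limit of detection apart from Itgad. Itgal, Itgam and Itgax, which encode the alpha L, alpha M and alpha X chains that pair with beta 2, had at most 36.8 counts in any library. Itgae, the alpha E chain of epithelial lymphocytes, had 28 to 44 counts per TNF-alpha library and 16 to 42 counts per vehicle library. All 4 overlapped between the groups and did not pass the test, with adjusted p from 0.25 to 0.771. Gm49368, annotated on the same strand and not a row of the table, shares 3450 of the 5024 exon bases of Itgam. Reads of the shared bases could not be separated, so the low Itgam count is uncertain. Itgad, the alpha D chain, had 13, 30.5 and 42 counts in TNF-alpha libraries, against 136.5, 154.5 and 195 counts in vehicle libraries. It fell by 2.45 ± 0.39 (adjusted p = 7.94e-04 by edgeR), between means of 0.332 ± 0.182 CPM in TNF-alpha libraries and 1.8 ± 0.274 CPM in vehicle libraries. Beside it, 2 genes of the opposite strand that share exon bases with Itgad fell too: the log2 fold change was -2.90 ± 0.53 for 4931431B13Rik and -0.80 ± 0.14 for Cox6a2, a muscle subunit of cytochrome c oxidase. Whether reads were counted by strand is not given in the sources used here, so reads of Itgad and of these genes cannot be told apart.

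**Figure D2:**
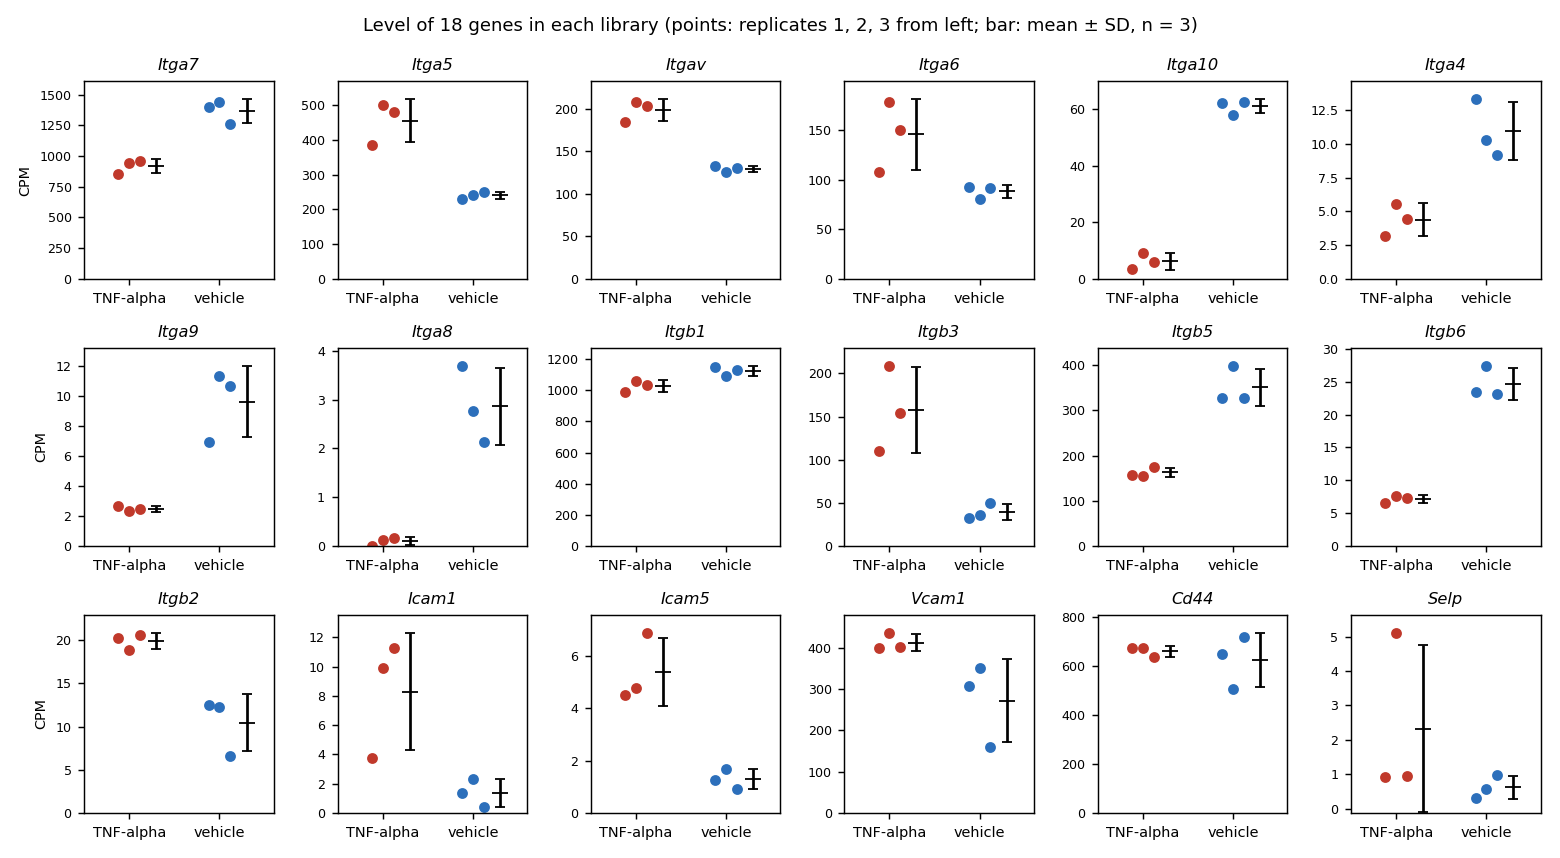
CPM in each library for 18 genes (y axis, linear; points, replicates 1 to 3; bars, mean ± SD, n = 3), TNF-alpha left and vehicle right in each panel. Itga10, Itga8 and Itgb6 are low in every TNF-alpha library, Itga5, Itgav and Itgb3 are high, and Selp is high in a single TNF-alpha library.

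The common partner of these alpha chains, Itgb1, changed little. Itgb1 (chromosome 8, 128685654 to 128733200, plus strand) encodes the beta 1 chain, which pairs with most alpha chains of muscle. It had 987, 1061 and 1037 CPM in TNF-alpha libraries, against 1153, 1091 and 1131 CPM in vehicle libraries. The TNF-alpha libraries were all slightly lower, but the change of -0.13 ± 0.07 between means of 1029 ± 37.7 CPM in TNF-alpha libraries and 1125 ± 31.8 CPM in vehicle libraries did not pass the test (adjusted p = 0.137 by edgeR, in a range of 0.0703 to 0.281).

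The beta chains that pair with alpha v moved in opposite directions. Itgb3 (chromosome 11, 104608000 to 104670476, plus strand) encodes the beta 3 chain of the vitronectin and osteopontin receptor. It had 109.9, 208.7 and 153.8 CPM in TNF-alpha libraries, against 32.6, 35.5 and 50.3 CPM in vehicle libraries. The lowest TNF-alpha library was well above the highest vehicle library. Itgb3 rose 3.99-fold between means of 157.5 ± 49.5 CPM in TNF-alpha libraries and 39.5 ± 9.47 CPM in vehicle libraries (SD, n = 3 each; log2 fold change 2.00 ± 0.29, adjusted p = 0.00194 by edgeR). Spp1, which encodes its ligand osteopontin, rose by 1.26 ± 0.12 to 5304 ± 807 CPM in TNF-alpha libraries, against 2215 ± 151 CPM in vehicle libraries.

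Itgb5, the beta 5 chain that also binds vitronectin with alpha v, had 157, 156 and 174 CPM in TNF-alpha libraries, against 327, 398 and 328 CPM in vehicle libraries. Its log2 fold change was -1.11 ± 0.09 (adjusted p = 1.92e-05 by edgeR), between means of 162 ± 10.2 CPM in TNF-alpha libraries and 351 ± 40.9 CPM in vehicle libraries. Itgb6, whose product with alpha v activates latent TGF-beta in epithelia, had 6.48, 7.64 and 7.24 CPM in TNF-alpha libraries, against 23.5, 27.4 and 23.1 CPM in vehicle libraries. It fell by 1.79 ± 0.10 (adjusted p = 2.57e-06), between means of 7.12 ± 0.592 CPM in TNF-alpha libraries and 24.7 ± 2.38 CPM in vehicle libraries, with little spread within either group. Itgb8, the other activator of latent TGF-beta, had 0.835, 0.735 and 0.621 CPM in TNF-alpha libraries, against 1.78, 2.48 and 2.06 CPM in vehicle libraries, and it fell by 1.53 ± 0.21 (adjusted p = 3.41e-04), between means of 0.73 ± 0.107 CPM in TNF-alpha libraries and 2.11 ± 0.352 CPM in vehicle libraries. Itgb4, the beta 4 chain of hemidesmosomes, had 12.8 to 16.7 CPM in TNF-alpha libraries and 5.79 to 18.1 CPM in vehicle libraries. Vehicle replicate 3 was the highest of the 6 libraries, and without it the Itgb4 change of 0.39 ± 0.42 became 0.97 and passed (adjusted p = 0.00519, in a range of 0.00519 to 0.85).

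Itgb2, the beta 2 chain of leukocyte integrins, rose. It had 20.3, 18.9 and 20.6 CPM in TNF-alpha libraries, against 12.5, 12.2 and 6.62 CPM in vehicle libraries, the last being vehicle replicate 3. The groups did not overlap, and the log2 fold change was 0.93 ± 0.23 (adjusted p = 0.0115 by edgeR), between means of 19.9 ± 0.935 CPM in TNF-alpha libraries and 10.5 ± 3.33 CPM in vehicle libraries. Of 10 leukocyte and macrophage markers, Tyrobp had 0 counts in all libraries, Ptprc, the pan-leukocyte gene CD45, had 0 counts in the TNF-alpha libraries and 2 to 4 counts in the vehicle libraries, and the macrophage gene Adgre1 had at most 2 counts. Cd14, Cd68, Csf1r and Lyz2 rose, Aif1 and Laptm5 did not pass the test, and Cx3cr1 was removed by the filter. The summed level of the list was 89.7 to 106 CPM in TNF-alpha libraries and 14.5 to 15.0 CPM in vehicle libraries. Most of it was Cd14 (mean 76.8 CPM in TNF-alpha libraries, 9.24 CPM in vehicle libraries) and Cd68 (19.85 and 4.81 CPM). Of the 10 genes, 7, Lyz2 among them, had under 100 counts in every library. The part of these markers in the rise of Itgb2 was not tested. Itgb7, the beta 7 chain of gut-homing lymphocytes, had 1.58 to 2.49 CPM in TNF-alpha libraries and 2.34 to 3.52 CPM in vehicle libraries (adjusted p = 0.0802). It passed without vehicle replicate 2 (adjusted p = 0.0448) or TNF-alpha replicate 1 (adjusted p = 0.0485), and the alternatives spanned 0.0448 to 0.248.

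Levels of different genes were compared as CPM per kilobase of annotated exon. On this scale alpha and beta transcripts were dominated by few genes in both groups. Itga7 made up 47.1%, 42.4% and 44.5% of the summed alpha level in TNF-alpha libraries, against 64.3%, 64.6% and 60.9% in vehicle libraries. Itga5 made up 34.9%, 36.9% and 36.8% in TNF-alpha libraries, against 17.3%, 17.8% and 19.9% in vehicle libraries. The share of Itga7 was thus lower, and that of Itga5 higher, in every TNF-alpha library. The summed alpha level itself was 254 ± 27.4 CPM per kilobase in TNF-alpha libraries and 267 ± 10.3 CPM per kilobase in vehicle libraries (SD, n = 3 each).

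Grouped by ligand, the laminin-binding chains took 54.6% ± 1.03 of the summed alpha level in TNF-alpha libraries and 70.7% ± 1.83 in vehicle libraries (SD, n = 3 each). Chains that recognise RGD took 44.2% ± 0.85 in TNF-alpha libraries and 23.4% ± 1.53 in vehicle libraries. The collagen-binding chains took 0.884% ± 0.184 in TNF-alpha libraries and 4.90% ± 0.287 in vehicle libraries. Itga10 was most of that share in the vehicle libraries, whereas in TNF-alpha replicates 1 and 3 it was below Itga11. The summed beta level was 334.9 ± 17.71 CPM per kilobase in TNF-alpha libraries and 390.9 ± 4.243 CPM per kilobase in vehicle libraries. Of it, Itgb1 took 75.3% ± 1.26 in TNF-alpha libraries and 70.6% ± 2.62 in vehicle libraries, although its level was not higher in TNF-alpha libraries. Itgb5 took 13.7% ± 1.01 in TNF-alpha libraries and 25.3% ± 2.67 in vehicle libraries. Itgb3 took 7.90% ± 2.11 in TNF-alpha libraries and 1.71% ± 0.425 in vehicle libraries. These shares are descriptions with no test.

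**Figure D3:**
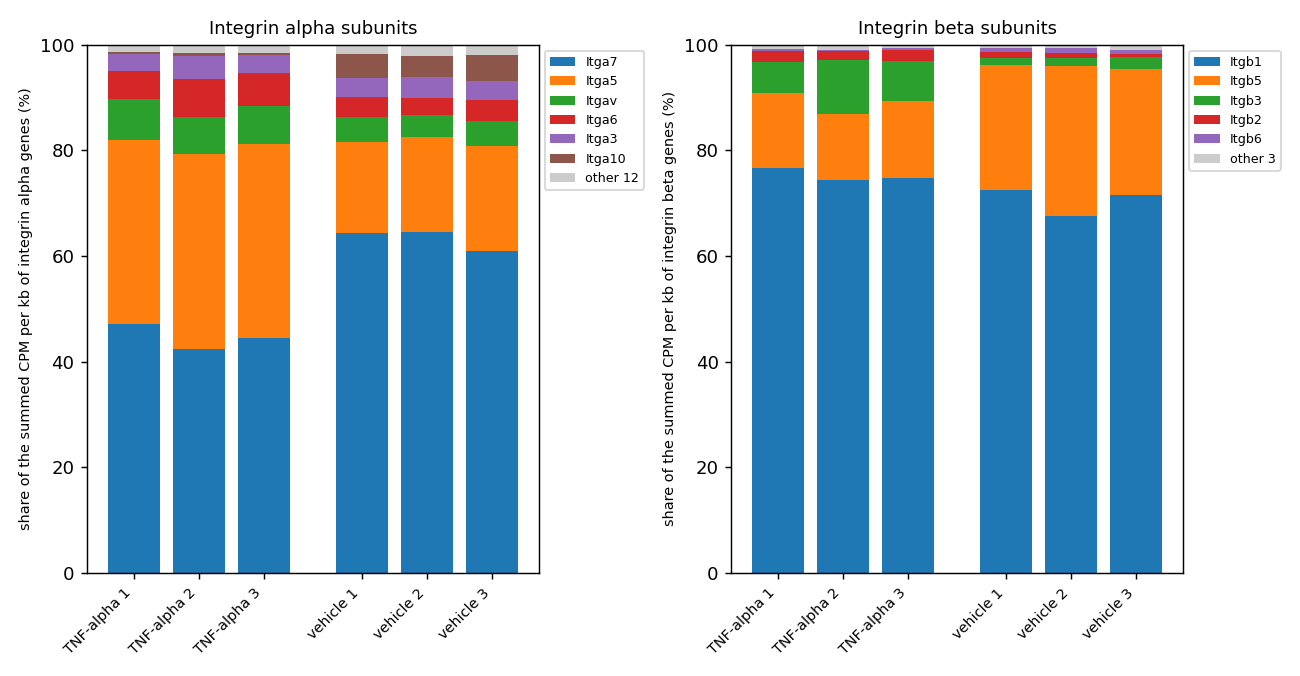
Share of each subunit in the summed CPM per kilobase of the 18 alpha genes (left) and the 8 beta genes (right) in each library, TNF-alpha libraries left of vehicle libraries. Itga5 takes 34.9% to 36.9% of the alpha level in the TNF-alpha libraries and 17.3% to 19.9% in the vehicle libraries.

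Ordered by mean CPM per kilobase in the TNF-alpha libraries, Itgb1 (252 ± 9.25), Itga7 (113 ± 7.03), Cd44 (97.4 ± 3.16) and Itga5 (92.3 ± 12.6) came first, followed by Vcam1 (46.5 ± 2.3) and Itgb5 (45.7 ± 2.88). In vehicle libraries the order was Itgb1 (276 ± 7.78), Itga7 (169 ± 11.9), Itgb5 (98.8 ± 11.5), Cd44 (92.3 ± 16.3), Itga5 (48.8 ± 2.14) and Vcam1 (30.7 ± 11.4). Cd44 and Itga5, and Vcam1 and Itgb5, lay within 1 SD of each other in the TNF-alpha libraries, as did Itgb5 and Cd44 in the vehicle libraries.

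The genes of the ICAM cluster rose together. Icam1, Icam4 and Icam5 lie side by side on the plus strand of chromosome 9, within 23.1 kb from 21015985 to 21039036. Icam1, the receptor of the leukocyte integrins LFA-1 and Mac-1, had 348, 849 and 943 counts in TNF-alpha libraries, against 113, 219 and 34 counts in vehicle libraries. In CPM this was 3.72, 9.90 and 11.3 in TNF-alpha libraries, against 1.36, 2.34 and 0.370 in vehicle libraries. The groups did not overlap, but both varied widely, with TNF-alpha replicate 1 nearest to the vehicle libraries. Icam1 rose 6.12-fold between means of 8.29 ± 4.01 CPM in TNF-alpha libraries and 1.35 ± 0.984 CPM in vehicle libraries (SD, n = 3 each; log2 fold change 2.61 ± 0.72, adjusted p = 0.0244 by edgeR). It missed the threshold when low counts were left unfiltered (adjusted p = 0.0627), when vehicle replicate 1 was dropped (0.0712) and when TNF-alpha replicate 3 was dropped (0.073). It also missed the threshold when the replicate number was added to the edgeR fit as a block (0.0737). Over all alternatives its adjusted p spanned 0.00313 to 0.0737 and its log2 fold change 2.16 to 3.27.

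Icam5, known as telencephalin from neurons of the forebrain, had 420, 411 and 576.5 counts in TNF-alpha libraries, against 106, 158.5 and 85 counts in vehicle libraries. It rose by 2.06 ± 0.25 (adjusted p = 2.09e-04 by edgeR), between means of 5.39 ± 1.3 CPM in TNF-alpha libraries and 1.3 ± 0.385 CPM in vehicle libraries and passed under every alternative tried. Icam4, the Landsteiner-Wiener protein of red cells, had 50, 50 and 69 counts in TNF-alpha libraries, against 18, 31 and 28 counts in vehicle libraries. The groups were apart, and it rose by 1.18 ± 0.31 (adjusted p = 0.0103). Dropping TNF-alpha replicate 3 gave an adjusted p of 0.0521, and the alternatives spanned 0.00897 to 0.0521. Icam2, a family member on another chromosome known from endothelium and platelets, had 10 to 15 counts per TNF-alpha library and 6 to 13 counts per vehicle library (adjusted p = 0.519). Within 100 kb of the cluster 9 other genes were tested, of which 4 rose, 1 fell and 4 did not pass. Of all tested genes 55.5% were called, 27.6% as risen and 27.9% as fallen, and differences from these shares were not tested. The 4 that rose did so by at most 0.99 on the log2 scale. Among these, Gm38431 (21067514 to 21091997) and Raver1 (21074158 to 21092008) overlap in position, so they may not be separate observations. The antisense gene Gm47079 shares 511 exon bases with Icam1, 116 with Icam5 and all 1110 exon bases of Icam4. Another antisense gene, Gm26592, shares 791 exon bases with Icam5. Neither is a row of the table, so any reads of them cannot be told apart from those of the ICAM genes, for Icam4 over its whole exon length.

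Because these neighbours moved together, the 200 bases upstream of each start site are shown from RefSeq (GRCm38.p6), 5′ to 3′ on the plus strand, with matches to GGAANTTCC in capitals, the letters of a site bound by NF-kB subunits. The stretches are chr9:21015740-21015939 for Icam1, chr9:21029232-21029431 for Icam4 and chr9:21031838-21032037 for Icam5.
Icam1: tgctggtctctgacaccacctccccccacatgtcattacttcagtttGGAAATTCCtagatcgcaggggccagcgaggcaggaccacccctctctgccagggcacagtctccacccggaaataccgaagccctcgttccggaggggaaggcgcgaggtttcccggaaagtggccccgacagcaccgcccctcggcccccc
Icam4: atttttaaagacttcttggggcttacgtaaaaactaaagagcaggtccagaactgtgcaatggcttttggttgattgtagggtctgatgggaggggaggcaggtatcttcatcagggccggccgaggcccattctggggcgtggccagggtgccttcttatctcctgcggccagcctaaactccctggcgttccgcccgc
Icam5: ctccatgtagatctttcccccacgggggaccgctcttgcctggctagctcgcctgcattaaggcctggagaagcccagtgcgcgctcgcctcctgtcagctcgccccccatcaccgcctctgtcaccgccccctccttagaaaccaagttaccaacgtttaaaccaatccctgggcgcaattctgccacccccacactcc

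Icam1 holds the match at position -153 from its start site. The motif reads the same on both strands and was chosen after this window had been read. Matches occur in 0.928% of the 32851 RefSeq windows, each running from 250 bases before to 50 bases after a start site. Among the 25 genes of the set with such a window, Icam1 alone held it. The kappaB consensus, searched on both strands, occurs in 8.46% of windows and was found for Itga3 and Madcam1. The AP-1 motif TGANTCA, which also reads the same on both strands, occurs in 7.81% of windows and was found for Itga3, Itga9, Itgax, Sele and Selp. The Itga9 window (chromosome 9, 118711442 to 118711741) lies inside the gene, which is annotated from 118606690 on the plus strand. The AP-1 match of Itga3 also lies in a window inside its gene (chromosome 11, 95069149 to 95069448), which begins at 95076801 on the minus strand. Neither match is thus near the first annotated start of its gene. Of the genes with a kappaB or AP-1 match, Itga9 fell, and the rest did not pass or were not tested. A match describes letters only.

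Vcam1 and Cd44, the abundant adhesion molecules of the set, did not pass the test. Vcam1 (chromosome 3, 116109949 to 116129688, minus strand) encodes the ligand of alpha 4 beta 1, which in cultured myoblasts takes part in cell contact. It had 400.2, 436 and 401 CPM in TNF-alpha libraries, against 306.5, 351 and 158.5 CPM in vehicle libraries. All TNF-alpha libraries lay above all vehicle libraries, but vehicle replicate 3 stood far below the other two. The change was 0.60 ± 0.29 (adjusted p = 0.128 by edgeR), between means of 413 ± 20.4 CPM in TNF-alpha libraries and 272 ± 101 CPM in vehicle libraries. Without vehicle replicate 3 it was 0.32 and passed (adjusted p = 0.0151, in a range of 0.0151 to 0.222). The same library had the lowest vehicle level of Icam1, Icam5 and Itgb2 and the highest of Itgb3 and Itgb4.

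Cd44 (chromosome 2, 102811141 to 102901665, minus strand), the hyaluronan receptor, had 673, 672 and 635.5 CPM in TNF-alpha libraries, against 651, 505 and 720.4 CPM in vehicle libraries. The groups overlapped, with a change of 0.08 ± 0.12 (adjusted p = 0.611), between means of 660.1 ± 21.4 CPM in TNF-alpha libraries and 625 ± 110.1 CPM in vehicle libraries. Of the listed hyaluronan synthase genes, named after their values were seen, Has1 rose by 1.00 ± 0.15 and Has2 by 1.06 ± 0.21, and Has3 did not pass the test (0.22 ± 0.20, adjusted p = 0.374 by edgeR). Both listed hyaluronidase genes rose, Hyal1 by 2.80 ± 0.09 (adjusted p = 1.19e-07) and Hyal2 by 0.42 ± 0.09 (adjusted p = 0.00416).

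Sele and Madcam1 were at or near the limit of detection. Sele, encoding E-selectin, had 10, 11 and 7 counts in TNF-alpha libraries, against 4, 9 and 4 counts in vehicle libraries, and was removed by the filter. Fitted with no filter, its log2 fold change was 0.74 with an adjusted p of 0.404. Madcam1, the ligand of alpha 4 beta 7, had 2 counts in 1 vehicle library and 0 counts in the other 5 libraries. Selp, encoding P-selectin, had 85.5, 439 and 78.5 counts in TNF-alpha libraries, against 26.5, 53.5 and 89.5 counts in vehicle libraries. The value of TNF-alpha replicate 2 stands apart, the groups overlap, and the change of 1.89 ± 0.84 did not pass (adjusted p = 0.106 by edgeR). The Selp change was 0.56 when that library was dropped, and the alternatives spanned 0.56 to 2.37. Gm16548, a gene of the opposite strand that shares 438 exon bases with Selp, was also highest in that library. It had 45 counts there against 10.5 counts in each of the other 2 TNF-alpha libraries. The values of both genes are not whole in the same libraries, and their reads cannot be told apart, so Gm16548 is not a separate observation. Of 8 endothelial markers, 4 were tested, and Egfl7 rose and Tek fell. Tie1 had 0 counts throughout, Emcn at most 6 and Kdr at most 14, and the summed level of the list was 3.99 to 4.79 CPM in TNF-alpha libraries and 3.73 to 4.75 CPM in vehicle libraries.

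Inside the cell, adaptors and kinases of integrin adhesions moved both ways. Of the 42 tested genes of this list 17 rose, 16 fell and 9 did not pass, a called share of 78.6% beside 55.5% of all tested genes, with a median of 0.03. For this list and those below, differences from the shares over all tested genes were not tested. The lists were chosen with earlier results of these data known. Rap1b, a GTPase that activates integrins, rose by 1.66 ± 0.07 (adjusted p = 6.73e-07 by edgeR) to 601 ± 8.99 CPM in TNF-alpha libraries, against 191 ± 14.6 CPM in vehicle libraries. Parvb, an actin-binding parvin, rose by 1.04 ± 0.10 and the tensin gene Tns3 by 0.77 ± 0.08. Itgb1bp2, which encodes melusin, a beta 1-binding chaperone of striated muscle, fell to 39.5 ± 3.98 CPM in TNF-alpha libraries, against 205 ± 14.3 CPM in vehicle libraries (-2.38 ± 0.09, adjusted p = 3.64e-07). Tns2 fell by 1.40 ± 0.06.

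The largest fall of that list, -5.20 ± 0.25, was that of Itgbl1, whose product is a secreted protein with integrin-like repeats and not an adaptor. Some paralogs of a family were called in opposite directions, and the examples here were chosen after their values were seen. The talin genes Tln1 and Tln2 changed by 0.31 ± 0.09 and -1.16, and Rap1b rose where Rap1a fell by 0.39. Parvb rose where Parva fell by 0.36, and Lims2 rose by 1.48 where Lims1 fell by 0.48. Of the muscle marker list 7 of 8 genes fell, where 27.9% of all tested genes fell, and the part of this list in the fall of Itgb1bp2 was not tested.

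Of 29 tested matrix ligands of integrins, 16 fell (55.2%, beside 27.9% of all tested genes), 8 rose (27.6%, beside 27.6%) and 5 did not pass. The difference between these shares was not tested. The list had a median of -0.39 beside 0.00 over all tested genes. The count of risen ligands was 5 without vehicle replicate 1 and 5 without TNF-alpha replicate 3. Nid1, the laminin-binding nidogen, rose to 1703 ± 51.8 CPM in TNF-alpha libraries, against 379 ± 54.7 CPM in vehicle libraries (2.17 ± 0.11, adjusted p = 1.35e-06 by edgeR), and the laminin chain gene Lama4 rose by 0.98 ± 0.08. Npnt, the microfibril gene Fbn1 and Edil3, an RGD protein bound by alpha v beta 3, had the smallest p among those that fell, Fbn1 by 0.88 ± 0.08 and Edil3 by 1.17 ± 0.12. For the pairs above, chosen after their values were seen, the ligand of alpha 5 beta 1, Fn1, fell by 0.32 ± 0.09 to 9667 ± 757 CPM in TNF-alpha libraries, against 12060 ± 484 CPM in vehicle libraries. Lama2, the laminin chain of the muscle basement membrane, fell by 0.99 ± 0.12.

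The partners of leukocyte adhesion molecules held 25 tested genes, of which 11 rose, 7 fell and 7 did not pass (median 0.42). The risen share was 44% beside 27.6% of all tested genes, and the fallen share was 28% beside 27.9%. Ezr, encoding the membrane and actin linker ezrin, which binds ICAM and CD44 tails, rose by 0.91 ± 0.09 (adjusted p = 4.16e-05 by edgeR), while its relative Rdx fell by 0.50 ± 0.07. The sheddase gene Adam8 rose by 1.97 ± 0.12, and Cd24a, a mucin-like ligand of P-selectin, fell by 1.43 ± 0.12. Mmp14, a membrane protease that cleaves CD44, fell to 319 ± 47.1 CPM in TNF-alpha libraries, against 815 ± 167 CPM in vehicle libraries. Selplg, encoding the P-selectin ligand, was removed by the filter.

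Among 24 tested genes of other adhesion molecules 10 rose, 9 fell and 5 did not pass (median 0.14), a called share of 79.2% beside 55.5% of all tested genes. Pvr, the poliovirus receptor of the nectin family, rose to 173 ± 3.80 CPM in TNF-alpha libraries, against 84.8 ± 1.57 CPM in vehicle libraries (1.03 ± 0.05, adjusted p = 1.58e-06 by edgeR). The tetraspanin gene Cd9, whose product associates with integrins, rose by 0.99 ± 0.08, and Cd47, the integrin-associated protein, by 0.67 ± 0.05. Jam2, a junctional molecule of endothelium that takes part in myoblast fusion, fell by 1.38 ± 0.09, Emb by 1.35 ± 0.12 and Ncam1 by 0.86 ± 0.09.

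**Figure D4:**
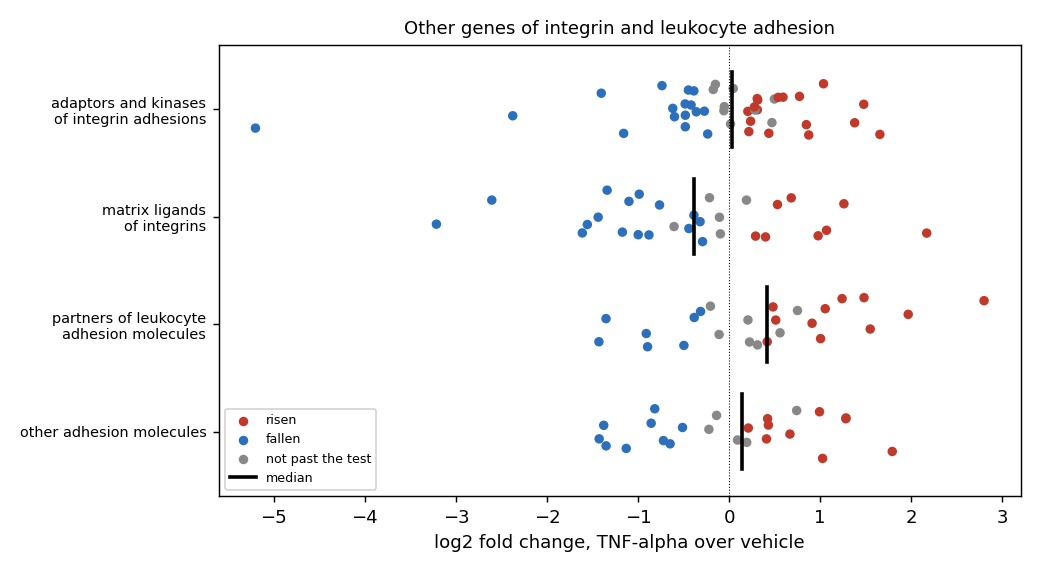
Log2 fold change of TNF-alpha over vehicle for the tested genes of 4 lists (points, coloured by edgeR call; black bars, medians). The median is lowest for the matrix ligands, at -0.39, and highest for the partners of leukocyte adhesion molecules, at 0.42.

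Fibroblast markers, given since several integrins above are shared with fibroblasts, moved both ways. Of 6 listed, Thy1 had at most 4 counts in a library and was removed by the filter. Of the 5 tested, Dcn and Pdgfra rose and Col1a1, Col3a1 and Pdgfrb fell. The summed level of the list was 10530 to 11600 CPM in TNF-alpha libraries and 8749 to 9318 CPM in vehicle libraries. Dcn alone had means of 6022 ± 200 CPM in TNF-alpha libraries and 2029 ± 265 CPM in vehicle libraries. The part of these markers in the integrin changes was not tested.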

How the data were processed

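Per the labels' protocols, polyA RNA of 6 constructs was made into stranded libraries and sequenced from both ends. The deposited counts hold decimals: between 20.1% and 21.0% of a library's values are not whole. Per the submitters' processing notes, the builds are mm10 and GRCm38 and the tools TopHat2 2.1.1, Bowtie2 2.3.5.1, featureCounts (Subread 2.0.0) and DESeq2, with no role stated. No source used here gives the counting options or the use of strand, so overlapping genes are uncertain. The estimated counts were rounded, where the plan had assumed deposited whole counts or rounding, filtered with filterByExpr, scaled with TMM and tested with edgeR 4.0.16 (R 4.3.3, quasi-likelihood, robust, group as the only term). Standard errors come from the F statistic. The biological coefficient of variation was 12.1%. Within groups the libraries differed beyond sampling noise (chi-square per degree of freedom 22.0 to 66.9), so each counts as 1 sample.

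Exon lengths and positions were taken from the GENCODE M21 annotation of GRCm38, which held 23384 of the 24421 symbols and all 35 genes; promoters come from RefSeq GRCm38.p6. Every gene of the set is named. Values per library are given for those that passed with at least a 1.5-fold change and 1 CPM in a group and for Icam1, Vcam1, Cd44, Itgb1, Itga5, Itga7 and Itgav, and counts for some others. From each list the 3 genes with the smallest p per direction and at least 5 CPM were named; others were chosen after their values were seen. The genes and lists were chosen with earlier results of these data known; 2 listed genes are not reported here. The procedure was tested on simulated data with far fewer changed genes than here and the same variation for every gene. That test does not show how the calls fare in these data. The alternatives were scaling by median ratio or by upper quartile, leaving low counts in, a filter of 1 CPM in 3 libraries, DESeq2 1.42.0, limma-voom (limma 3.58.1), no robust estimation, a replicate block, and leaving out each library.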

Additional observations from a re-analysis of the deposited data

How the results depend on the processing

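Over 14 alternatives the 35 genes gave 453 values for the 33 tested, of which 431 kept their direction and side of the threshold. All 14 left 16 of the 19 calls in place; the others were those of Itga2, Icam1 and Icam4, given above. The number of genes of the set that rose was 10, with 8 to 10 under other scalings, filters and tools and 7 to 11 without 1 library, and the number that fell was 9, with 9 and 9 to 11. Over all genes, 3674 to 4146 rose and 3747 to 4317 fell without 1 library. Risen matrix ligands numbered 8, with 5 to 9 without 1 library. Of genes not past the test, Itga3 changed sign without TNF-alpha replicate 1 (0.0231; -0.3443 to 0.0231 without 1 library), Itgae without vehicle replicate 3 (-0.1672; up to 0.52) and TNF-alpha replicate 3 (-0.1231), Itgax without vehicle replicate 3 (-0.1561; up to 1.049) and Cd44 without vehicle replicate 2 (-0.0568; up to 0.1865). The cause was not tested. With a replicate block, 9 genes of the set rose and 9 fell; Icam1 lost its call (adjusted p = 0.0737, in a range of 0.00313 to 0.0737). Same-numbered libraries did not deviate together (correlations 0.04, -0.05 and -0.11), and 1 of 3 correlated best with its own number. These values do not show that the numbers pair the samples, but so few libraries cannot exclude it. Genes under about 50 counts per library, such as Itgal, Itgax, Icam2 and Sele, are limited by depth: a missed threshold there does not show equal levels.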
